A study of Sus scrofa with 12 samples.

Results

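The liver transcriptome of untreated growing pigs was described gene by gene, with the aim of showing which transcripts gave the brightest signals, which differed most between the animals and which differed together. The data were the 6 control pigs (group CON) out of 12 pigs of a feeding trial. All 12 animals were male crossbred pigs, a Pietrain cross with German Landrace and German Edelschwein in its other line, and were 5 weeks old at the start of a trial of 28 days. Group CON received only the vehicle, a sodium bicarbonate solution, by mouth. The other 6 pigs (group PIV) received 30 mg of sodium pivalate per kg body weight and day in the same vehicle, and were used here only within their own group, as animals in which the ranking of the control pigs could be looked at again. Liver was taken 2 h after the last meal, and total RNA of each liver was measured on 1 Affymetrix porcine gene array. The pigs were housed in pairs, and the sources used here give neither pen nor litter of a pig. The 6 animals may therefore not be independent, and a difference between pigs can hold a difference between pens, litters, samples of liver or arrays.

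A value is the log2 signal of a transcript cluster, that is, of the set of probes designed for 1 locus, so that a difference of 1 is a difference of 2-fold. Of 25388 clusters 14427 carried a gene symbol after the 3 clusters of ribosomal RNA were set aside. Where several clusters shared a symbol, the one with the highest mean in group CON was kept, which left 13782 genes. A mean log2 signal of at least 5 was taken as the limit for ranking genes by their variation, a limit set without a measured background, and 6884 of the genes (49.9%) reached it. Array medians ran from 4.75 to 4.88. Across clusters, Pearson's r between 2 control arrays was between 0.977 and 0.989. The array of pig K22 stood somewhat apart. Its median distance from the median of the 6 pigs was 0.14 per gene, against 0.08 to 0.11 for the other 5 arrays, and its mean r with the other control arrays was 0.982, against 0.983 to 0.986. Many results that rest on K22 are therefore given with and without it, and the others are given with it only.

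The liver makes most of the proteins of the blood plasma, turns absorbed sugar and amino acids into glycogen and fat after a meal and releases glucose and ketone bodies between meals. It also forms bile acids, clears drugs and hormones and answers infection by secreting acute phase proteins. Most of its mass consists of hepatocytes, with Kupffer cells (resident macrophages), sinusoidal endothelium, stellate cells, bile duct cells and lymphocytes among them. In a piece of whole liver a lower signal can mean fewer cells of a type or less RNA per cell, and these cannot be told apart.

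The brightest gene was ALB, serum albumin, at 12.84 ± 0.04 (mean ± SD, n = 6). It was followed by AHSG, the plasma protein fetuin A, at 12.76 ± 0.05, and by LOC102157831, annotated as similar to alpha-1-acid glycoprotein, at 12.33 ± 0.13. The further places among the 10 brightest were held by APOC3 at 12.23 ± 0.09 and APOE at 12.17 ± 0.11, both apolipoproteins, HRG (histidine-rich glycoprotein) at 12.21 ± 0.10, FTL (ferritin light chain) at 12.13 ± 0.13, HP (haptoglobin) at 12.12 ± 0.17, APOH at 11.97 ± 0.08 and CAT (catalase) at 11.94 ± 0.10. These are ranks of signal and not of RNA amount, since probes of different genes bind their targets with different strength. All 21 hepatocyte plasma protein genes that were found lay among the 1000 brightest genes, a place that began at a signal of 7.60, and 19 lay among the 100 brightest. The 9 hepatocyte markers found had a list mean of 11.31 to 11.44 per pig.

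Among the other cell types, macrophages were well represented, and 14 of their 16 genes found reached a mean of 5, among them C1QA (9.47 ± 0.32), CD5L (9.37 ± 0.04) and CD68 (8.43 ± 0.26), and the list mean was 7.07 in K3, against 6.62 to 6.93 in the other pigs. All 8 endothelial genes reached 5, with a list mean of 7.08 to 7.20 in every pig. The stellate cell list had 12 of 14 genes at 5 or more and list means of 6.24 to 6.73, and the bile duct list 8 of 11 with means of 5.81 to 6.12. Of the 22 T and natural killer cell genes 9 reached 5, and the list mean was 4.22 in K22, 4.85 in K4 and 4.81 in K3. Few genes of erythroid cells, neutrophils or B and plasma cells reached 5: 1 of 12 erythroid genes (TSPO2, 5.27 ± 0.14), 1 of 11 neutrophil genes (ELANE, 6.47 ± 0.23) and 1 of 8 B and plasma cell genes (JCHAIN, 6.48 ± 0.27). None of the 6 skeletal muscle and none of the 6 pancreas genes found reached it, with list means of at most 4.08 and 3.77 in any pig. The male label could not be looked at, because none of the 10 genes listed for it was found by symbol.

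Most genes differed little between the untreated pigs. The SD over the 6 pigs had a median of 0.17 over the 6884 genes, with 0.08 at the 5th and 0.36 at the 95th percentile. The median distance between the highest and the lowest pig was 0.47, which is 1.38-fold. An SD of at least 0.5, the limit used here for a variable gene, was found for 118 of the 6884 genes (1.71%), an SD of at least 1 for 17 genes and of at least 2 for 3 genes. These genes were picked by their SD, so the SD itself is a description and no test of it is given. The limit of 5 applies to the mean of all 6 pigs. A dim gene can therefore reach it only through the pigs in which it is high, and such pigs raise its SD as well. The gene just inside the limit was APOA4 with an SD of 0.504, and the one just outside was OLR1 with 0.495 (both named after their values were seen). An SD above 0.26, which is the 1.2-fold step that the study used as its filter for a change, was reached by 1148 genes (16.7%).

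**Figure D1:**
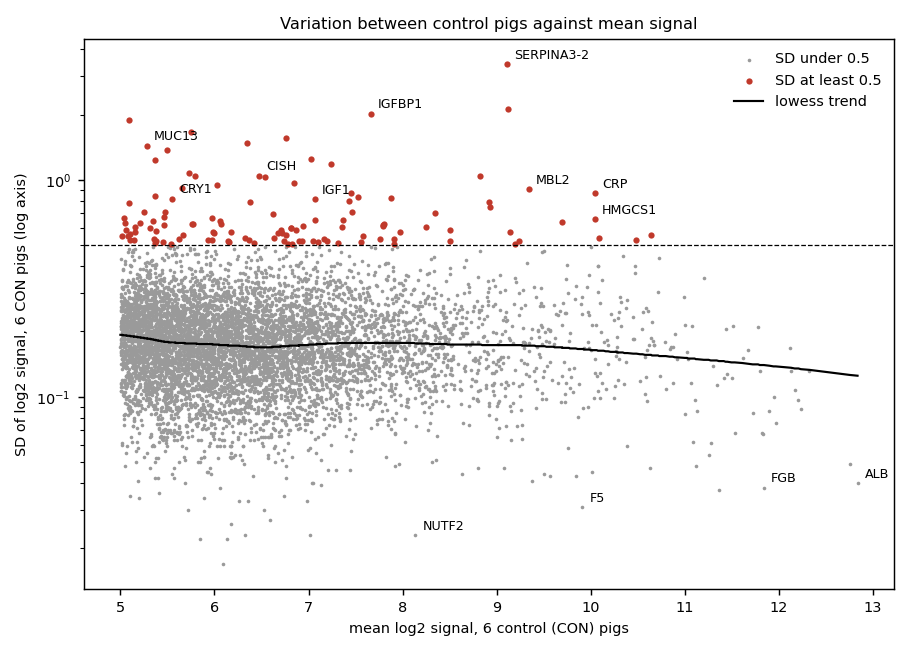
SD over the 6 control pigs (vertical axis, log scale) against the mean log2 signal (horizontal axis) for the 6884 genes with a mean of at least 5; each point is a gene, red points have an SD of at least 0.5 (dashed line), and the black line is a lowess trend. The trend lies between 0.13 and 0.19, all 118 red points lie at 2 times the trend or above, and the plasma protein genes at the right lie low.

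The usual SD depended little on brightness. Its median was 0.18 for genes with a signal of 5 to 6 and 0.17 for those of 8 to 9, and only the 41 genes above 11 were steadier, with a median of 0.11 and no gene at 0.5. Among the 100 brightest genes 2 were variable, CYP2C49 (10.64 ± 0.56), a cytochrome P450 of drug and steroid metabolism, and FADS1 (10.49 ± 0.53), the delta-5 desaturase of polyunsaturated fatty acids. The variable genes were not dimmer than the rest, with a median signal of 6.69, against 6.17 for the other genes. They were measured with a median of 24 probes, against 25, but 9 of them (7.63%) had fewer than 10 probes, against 92 of the other genes (1.36%). The array's annotation marked 7 of the variable genes (5.93%) as cross-hybridising, so that their probes may also read other transcripts, against 6.09% of the other genes. LOC100524143, UQCR10, LOC396684, ACSL4 and TAF7 were among those marked.

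Plasma proteins were among the steadiest bright genes. The 10 genes with the smallest SD at a signal of 8 or more included ALB (SD 0.04), FGB (fibrinogen beta chain, 0.04), AMBP (0.04) and F5 (coagulation factor V, 0.03), together with CD5L of macrophages (0.04), RPS4X of the ribosome (0.04), PFN1 (profilin, 0.04), ITM2B (0.04), ORMDL3 (0.04) and NUTF2, a nuclear import factor, with 0.02. NUTF2 lay between 8.10 and 8.16 in all 6 pigs. None of the 21 plasma protein genes was variable, and their median SD was 0.10. SDs this small follow the scaling of the arrays: with equal array medians NUTF2 had 0.04, F5 0.07 and FGB 0.08, and after a second quantile normalization NUTF2 had 0.08. ACTB, one of the genes used as a reference in qPCR by the study, had an SD of 0.15, and 0 of 12 reference genes were variable (median SD 0.15, GAPDH 0.27, and 0.12 without K22). At the 1.71% of all genes, lists of 21 or 12 genes hold fewer than 1 variable gene on average, so neither count of 0 sets its list apart. RPS9 and SDHA were not found by symbol.

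The most variable gene was SERPINA3-2, alpha-1-antichymotrypsin 2, a porcine relative of a human protease inhibitor of the acute phase. Its signal was 4.96 in K1, 4.48 in K3, 11.55 in K4, 11.17 in K22, 10.95 in K23 and 11.54 in K42 (SD 3.41, 9 probes). K1 and K3 thus lay at the level of genes that give no clear signal, while the other 4 pigs were far brighter. Background levels of the probes were not analysed here, so the distance is not given as a fold. All 6 pigs of group PIV lay between 10.65 and 11.53 (SD 0.37). Its neighbours on chromosome 7, LOC100156325 (serpin A3-6) and LOC396684 (serpin A3-5), were variable as well but in other pigs. LOC100156325, 7.20 kb away in the annotation of the array, was 7.97 in K1, 8.97 in K3, 9.54 in K4, 7.18 in K22, 9.80 in K23 and 9.51 in K42, and LOC396684 was 7.52, 8.89, 7.37, 6.14, 7.45 and 7.35 in the same order. The r of SERPINA3-2 was 0.27 with LOC100156325 and −0.68 with LOC396684. These genes are near copies of each other, and how far their probes read more than 1 of them was not tested. The array's annotation marked LOC396684 as cross-hybridising, but not SERPINA3-2 or LOC100156325. By the array's annotation, of a genome build that none of the sources used here names, the 3 clusters span chr7:124550458-124559550, chr7:124534585-124543258 and chr7:124383536-124384897, all on the minus strand.

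Other genes at the top of the ranking also had pigs far apart. LOC100516628, annotated as similar to the UDP-glucuronosyltransferase UGT2B18, an enzyme type that couples steroids and drugs to glucuronic acid, was 7.58 in K1, nearly as high in K42, and between 3.75 and 3.99 in the other 4 pigs. Its mean of 5.09 thus reached the limit of 5 only through K1 and K42. LOC100512656, a retinol dehydrogenase 16, was 4.93 in K22, 9.03 in K23 and between 9.90 and 10.39 in the other 4 pigs. Its SD of 2.12 was 0.55 without K22. LOC100524143, annotated as similar to TMEM52B, was 4.69 in K1 and 4.25 in K42, against 6.90 to 7.60 in the other pigs. MUC13, a membrane mucin of epithelial surfaces, was 3.68 in K22 and 3.65 in K42, 5.03 in K1 and 5.99 to 7.27 in the other 3. In group PIV the same genes again had large SDs, with 1.54 for LOC100516628 (3.59 to 7.64), 1.70 for LOC100524143 (3.33 to 7.24) and 1.47 for MUC13 (4.14 to 7.95), whereas LOC100512656 had 0.51 (8.65 to 9.90).

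Further genes of this kind were spread more evenly. UQCR10, a small subunit of respiratory complex III read here with 9 probes, ran from 5.39 in K22 and 5.71 in K42 to 8.60 in K4 (SD 1.25). IGSF5, an adhesion protein of the immunoglobulin superfamily, was 3.33 in K42 and 4.45 in K1, and 5.64 to 6.56 in the other pigs (SD 1.23, 0.81 without K42). ASAH2, the neutral ceramidase, ranged from 5.28 in K22 to 7.74 in K42 (SD 0.97), and ENPP3, an ectonucleotide pyrophosphatase, from 4.97 in K42 to 7.64 in K22 (SD 0.95, 0.58 without K22). PKD1L3, a member of the polycystin family, was 8.16 in K1 and 9.10 in K3 and 4.88 to 6.29 in the other 4 pigs (SD 1.56). TAF7, a subunit of a general transcription factor, was 5.20 in K3 and 5.62 in K42, against 6.59 to 7.14 in the rest (SD 0.79). These 6 genes varied in both groups. The SDs of these genes in group PIV were 1.38 for UQCR10, 0.98 for IGSF5, 1.11 for ASAH2, 0.56 for ENPP3, 0.71 for PKD1L3 and 0.69 for TAF7.

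**Figure D2:**
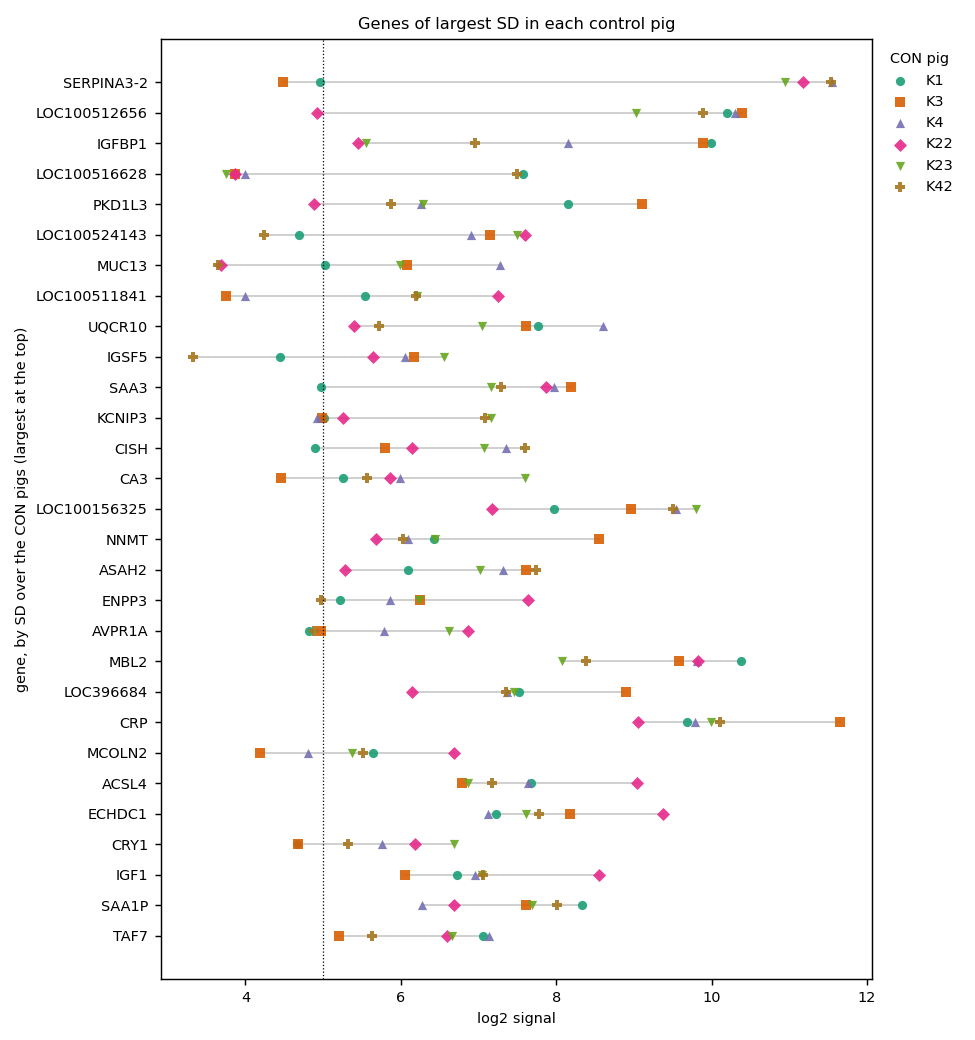
Log2 signal (horizontal axis) of genes of largest SD (vertical axis, largest at the top) in each of the 6 control pigs, 1 symbol and colour per pig; the grey line spans lowest to highest pig and the dotted line marks a signal of 5. SERPINA3-2 shows K1 and K3 near 5 and the other 4 pigs near 11, while IGFBP1 is spread from 5.44 to 9.99.

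Several genes known to respond to feeding and to insulin were variable. IGFBP1, a binding protein of the insulin-like growth factors whose gene insulin represses, was 9.99 in K1, 9.89 in K3, 8.15 in K4, 5.44 in K22, 5.56 in K23 and 6.95 in K42 (SD 2.02). The highest pig lay 23.3-fold above the lowest, and the PIV pigs ran from 6.81 to 10.46 (SD 1.57). PCK1, the key enzyme of gluconeogenesis, was 8.95 in K3, 8.13 in K1 and 7.21 in K22, with the other 3 pigs between 7.74 and 8.01 (SD 0.57, 0.35 without K3). GPT2, which exchanges amino groups between alanine and glutamate, was 8.47 in K23 and 6.68 and 6.71 in K1 and K3 (SD 0.65, 0.42 without K23). TAT, the first enzyme of tyrosine breakdown, was 10.28 in K3, 9.80 in K1 and 9.05 to 9.29 in the other 4 pigs. Its SD of 0.46 (0.28 without K3) was under the limit of 0.5. Of the 13 bright genes of gluconeogenesis and amino acid breakdown 3 were variable (23.1%, against 1.71% of all genes). There were 3 without K22 and 2 without K3. The median SD of the 13 was 0.37, against 0.17 for all genes.

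Of the 15 bright genes of the fasting list, targets of the fatty acid receptor PPARα, 3 were variable (20.0%, against 1.71% of all genes). Among them were the fatty acid ω-hydroxylases CYP4A24 and CYP4A21. The median r between the 15 genes was 0.20, against 0.07 for all pairs of the 6884 genes. CYP4A24 was 8.97 in K22, 9.26 in K23 and 8.86 in K42, against 7.84 to 8.07 in K1, K3 and K4 (SD 0.59). CYP4A21 showed the same division, with 9.63 to 9.85 in K22, K23 and K42 and 8.68 to 8.83 in the other 3 (SD 0.52). Both genes lie 2.57 kb apart on chromosome 6 and are near copies. Their r was 0.98 in group CON and 0.89 in group PIV, and how far probes of one read the other was not tested.

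The axis of growth hormone was variable in 2 of 9 bright genes (22.2%), against 1.71% of all genes, and in 1 without K22. IGF1, the growth factor that the liver secretes under growth hormone, was 8.55 in K22 and 6.06 to 7.06 in the other pigs (SD 0.82, 0.42 without K22). CISH, a feedback inhibitor of cytokine receptors that STAT5 induces, was 4.90 in K1, 5.79 in K3, 7.35 in K4, 6.14 in K22, 7.07 in K23 and 7.60 in K42 (SD 1.04). The pig with the highest IGF1 was thus not among the 3 highest for CISH. GHR, the receptor of growth hormone, was 8.49 in K22 and 8.58 in K23 and 7.40 to 7.87 in the others, with an SD of 0.49, just under the limit. PRLR, the related receptor of prolactin, was 6.83 in K22 and 4.94 to 5.68 in the others (SD 0.71, 0.29 without K22).

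Sterol synthesis varied in a graded way. HMGCS1, which makes the precursor of sterols in the cytosol, was 9.49 in K1, 9.05 in K3, 10.36 in K4, 10.75 in K22, 10.58 in K23 and 10.03 in K42 (SD 0.66). K3 was the lowest pig in 13 of the 15 bright genes of cholesterol synthesis and uptake, and K22 or K23 the highest in 14. These counts were 12 and 14 with equal array medians and 12 and 12 after a second quantile normalization. Of all 6884 genes K3 was the lowest pig in 1045, K22 the highest in 2203 and K23 the highest in 1085. The median r between the genes of this list was 0.81 in group CON and 0.63 in group PIV, against 0.07 and 0.02 for all pairs of genes in the same pigs. An SD of 0.5 was passed by 2 of the 15 (13.3%, against 1.71% of all genes), HMGCS1 among them, and by none without K3. The list's median SD was 0.32.

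In fatty acid synthesis K22 was the highest pig in 12 of 14 bright genes (12 with equal array medians, 11 after quantile normalization). It was also the highest in 2203 of all 6884 genes (2781 and 1703). The 4 variable genes of this list (28.6%, against 1.71% of all genes) were ACLY, ACSS2, SCD and FADS1. ACLY, which makes cytosolic acetyl-CoA from citrate, was 8.08 in K22 and 6.34 to 7.34 in the others (SD 0.66). ACSS2, which makes it from acetate, was 9.97 in K22, 8.43 in K1, 8.52 in K3 and 9.26 to 9.34 in the other 3 (SD 0.58). SCD, the desaturase that forms oleic acid, was 11.09 in K22 and 9.68 to 10.28 in the others (SD 0.54, 0.25 without K22). None of the 14 was variable without K22. The median r between the genes of the list was 0.57 in group CON and −0.03 in group PIV.

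The list of acute phase genes held a large share of variable genes. Of its 9 bright genes 4 were variable (44.4%, against 1.71% of all genes), namely SERPINA3-2, SAA3, NNMT and CRP. There were 4 without K22 and 2 without K3. The list was chosen with earlier results of these data known, so its share is a description and no test. K3 was the highest pig in 6 of the 9 and K22 the lowest in 5, against 1015 and 1055 of all 6884 genes. The median r within the list was 0.07. CRP, C-reactive protein, was 11.65 in K3 and 9.05 in K22, with the other 4 pigs between 9.68 and 10.10 (SD 0.87, 0.41 without K3). NNMT, which methylates nicotinamide, was 8.55 in K3 and 5.68 to 6.44 in the other pigs (SD 1.03, 0.31 without K3). SAA3, a serum amyloid A gene, was 4.98 in K1 and 7.16 to 8.19 in the others (SD 1.18, 0.45 without K1). SAA1P, its neighbour on chromosome 2, had its highest value in K1, at 8.34, and its lowest in K4, at 6.27 (SD 0.80), and r between both genes was −0.68. HP and CP, haptoglobin and ceruloplasmin, were also highest in K3, at 12.41 and 11.38, but with SDs of 0.17 and 0.29. K3 also had the highest signal of 10 of the 14 bright macrophage genes, with a mean of 0.27 above the average of the 6 pigs. It was the highest pig in 1015 of all 6884 genes. The part of macrophages in the values of CRP and NNMT was not tested.

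MBL2, a mannose-binding lectin that starts complement activation and is secreted by hepatocytes, was 8.08 in K23 and 8.39 in K42, against 9.58 to 10.38 in the other 4 pigs (SD 0.91). In group PIV its SD was 0.33, with values of 9.28 to 10.27. HAMP, hepcidin, the hormone that limits the uptake of iron, was 4.93 in K1, 5.01 in K3, 4.84 in K4, 6.12 in K22, 6.21 in K23 and 5.69 in K42 (SD 0.62), a signal low in the ranking for a hormone made by the liver. It was the only variable gene among the 13 bright genes of iron handling and BMP signalling (7.69%, against 1.71% of all genes). LEAP2, a secreted peptide that blocks the ghrelin receptor, was 8.73 in K22, 8.25 in K23 and 6.98 in K3, with the other 3 between 7.40 and 7.87 (SD 0.62).

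Histocompatibility genes were variable in 2 of 15 bright members (13.3%, against 1.71% of all genes), both class I heavy chains, and in 1 without K22. SLA-1 was 9.77 in K3 and 9.92 in K4, 9.05 in K42 and 8.07 to 8.36 in K1, K22 and K23 (SD 0.79). SLA-3 was 6.85 in K22 and 7.24 in K23, against 7.89 to 8.47 in the other 4 pigs (SD 0.62). Both are polymorphic genes measured with 9 probes each, and the part of allele differences under the probes was not tested. B2M, the shared light chain of class I molecules, was 10.84 ± 0.17. Of the 16 bright interferon-stimulated genes 1 was variable (6.25%, against 1.71% of all genes). This was CXCL10, a chemokine for T cells, at 5.29 in K22 and 6.32 to 6.80 in the other 5 pigs (SD 0.54, 0.20 without K22). In K22 the T and natural killer cell genes were lowest in 7 of 9 (6 with equal array medians), against 1055 of all 6884 genes (652). The part of T and natural killer cells in CXCL10 was not tested.

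Some enzymes of detoxification and bile acid metabolism were variable. LOC100511841, a UDP-glucuronosyltransferase of the UGT1 family, was 7.25 in K22, 6.22 in K23, 6.20 in K42, 5.54 in K1, 3.99 in K4 and 3.75 in K3 (SD 1.37). CYP2C49 was 11.25 in K1 and 11.30 in K23, 10.35 to 10.70 in K3, K4 and K22, and 9.86 in K42 (SD 0.56), and CYP2C42 was 6.02 in K3 and 7.61 in K22 (SD 0.59). These were the 2 variable genes among 13 bright cytochromes P450 and flavin monooxygenases (15.4%, against 1.71% of all genes). The median r of this list was 0.08. CYP2E1, the ethanol-inducible cytochrome of pericentral hepatocytes, was steady at 11.80 ± 0.13, with K23 alone above the rest at 12.06 (SD 0.03 without K23). In bile acid metabolism 3 of 18 bright genes were variable (16.7%, against 1.71% of all genes), and 1 of 18 without K22. The 3 were AMACR, which inverts a side chain on the way to bile acids (8.34 ± 0.71), AKR1C4, a reductase of steroids (8.25 ± 0.60), and SLC51B, a subunit of the exporter of bile acids at the basolateral membrane (6.06 ± 0.65). LOC100511841 had an r of 0.91 with CYP2C42 and of 0.87 with AKR1C4, and AMACR one of 0.90 with AKR1C4. SLC51B was 7.34 in K22 and 5.54 to 6.02 in the other pigs, and its SD was 0.17 without K22.

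Genes of cell division were dim and mostly highest in K22. Of 13 proliferation genes found 6 reached 5, and 3 of these were variable (50.0%, against 1.71% of all genes). CDC20 and KIF20A, which act in mitosis, were highest in K22 (5.99 and 6.00) and lowest in K3 (4.36 and 4.53). CENPF, a kinetochore protein, was highest in K1 (5.81), with 5.71 in K22, and lowest in K23 (4.43). Its mean was 5.10, close to the limit of 5. Only 1 of the 6 was variable without K22 and 1 without K3. The mean of all 13 genes was 5.22 in K22, 4.79 in K1 and 4.17 to 4.49 in the other pigs. MCM4, a subunit of the helicase that opens DNA for replication, was also highest in K22 (6.72) and lowest in K3 (5.01).

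The clock was variable in a single gene. CRY1, a repressor of the circadian clock, was 4.66 in K1, 4.68 in K3, 5.76 in K4, 6.18 in K22, 6.69 in K23 and 5.32 in K42 (SD 0.82), and its SD in group PIV was larger, at 1.03. CRY2 and PER1, other repressors of the clock, had SDs of 0.29 and 0.28. In all, 1 of 8 bright clock genes was variable (12.5%, against 1.71% of all genes). No gene was variable among 10 immediate early genes, 17 genes of the unfolded protein response, 11 pericentral genes, 6 targets of NRF2, 14 macrophage, 9 T and natural killer cell, 8 endothelial and 8 bile duct genes. At the background of 1.71% such lists hold fewer than 1 variable gene on average, so that these counts do not set them apart. Among the 11 pericentral genes K23 was nevertheless the highest pig in 8, as it was with equal array medians and after a second quantile normalization. It was the highest in 1085 of all 6884 genes. Of 12 stellate cell genes 2 were variable (16.7%, against 1.71% of all genes). They were RGS5 (5.09 ± 0.78, highest in K23 at 6.43, SD 0.47 without K23) and ACTA2, smooth muscle actin (5.77 ± 0.62, highest in K22 at 6.64). Among other single genes, AVPR1A, the vasopressin receptor of hepatocytes, was 6.87 in K22 and 6.62 in K23, against 4.82 to 5.79 in the others, and CA3, carbonic anhydrase III, was 7.60 in K23 and 4.46 in K3 (SD 1.04, 0.61 without K23).

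By their annotated processes, 14 of the 65 annotated variable genes (21.5%) belonged to oxidation and reduction, against 180 of all 2842 annotated genes (6.33%). A further term, held by 7 of 65 (10.8%), was lipid metabolism, against 48 of 2842 (1.69%), and 10 of 60 (16.7%) were placed in the extracellular space, against 173 of 2915 (5.93%). The nucleus was annotated for 10 of the 60 (16.7%), against 791 of 2915 (27.1%). These shares describe the genes that the ranking picked and carry no test.

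Pig K22 was the highest of the 6 animals in 47 of the 118 variable genes and K3 the lowest in 33. After a second quantile normalization these counts were 42 and 35, and with equal array medians 47 and 32. K22 was also the highest pig in 2203 of all 6884 genes and K42 the lowest in 2001. These counts came to 1703 and 1540 after quantile normalization and to 2781 and 2923 with equal array medians. The size of such a shift thus depended on the scaling, while K22 stayed most often highest and K42 most often lowest. Without K22, 80 of the 118 genes were still variable, and 90 genes in all. A single pig stood apart from the other 5, with a gap to its nearest neighbour above Dixon's critical value for 6 samples, in 9 of the 118 genes (7.63%), against 5.53% of all 6884 genes.

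To see which variable genes moved in step, Pearson's r over the 6 control pigs was computed between the 100 genes of largest SD, and genes were joined into groups by average linkage at an r of 0.8. The median r of all 4950 pairs was 0.11, 140 pairs reached 0.9 and 85 pairs lay at −0.9 or lower. Linkage gave 9 groups of at least 4 genes, with 57 genes in all. The groups were formed on these values, so a high r inside them is what the method looks for. All r values share the same 6 pigs and are not independent of each other. The r of the same pairs in the 6 PIV pigs is given beside it, because these animals did not enter the grouping.

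**Figure D3:**
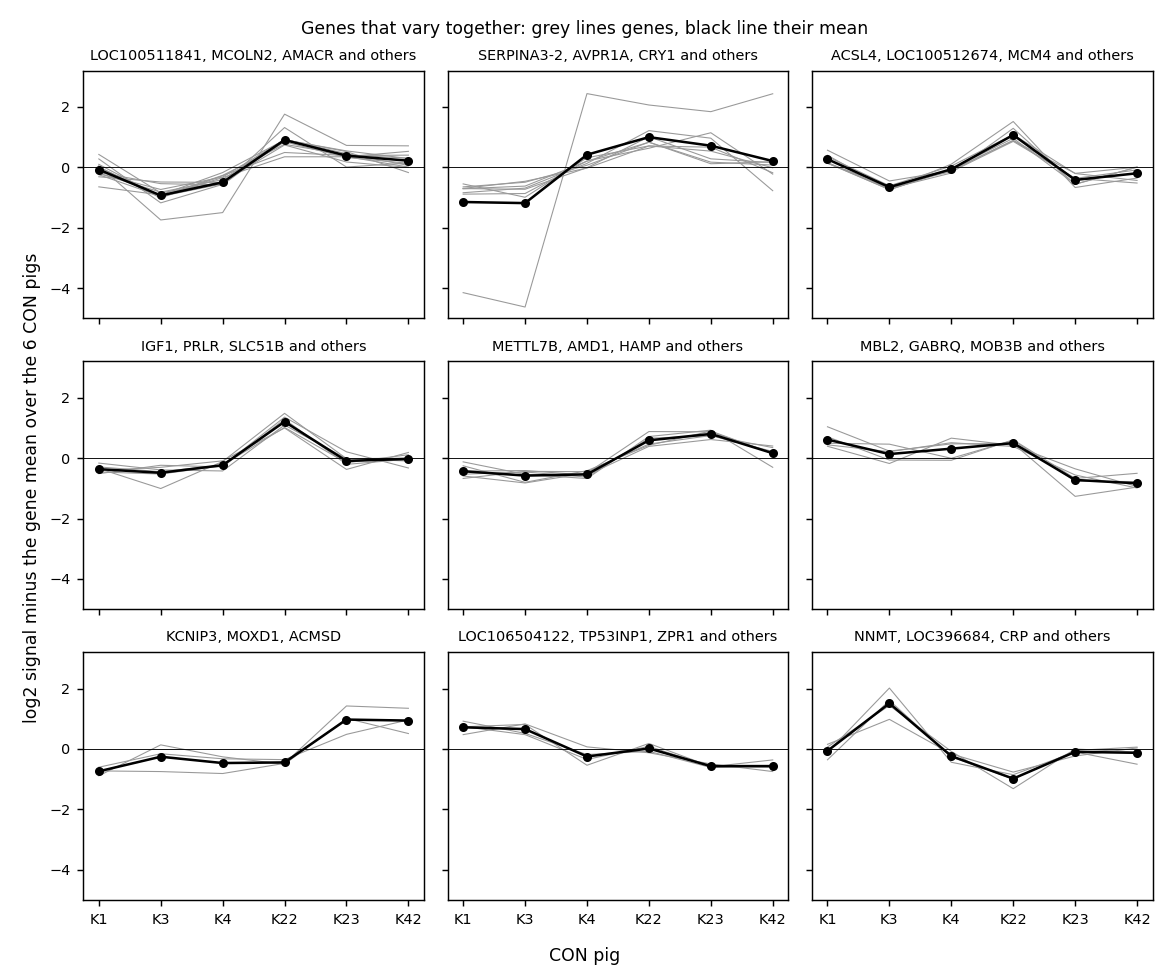
Log2 signal minus the gene's mean over the 6 control pigs (vertical axis) in each control pig (horizontal axis, pigs have no order) for the 9 groups; grey lines are genes, and the black line is the mean of those drawn. K22 is at the top in the IGF1 and ACSL4 groups, K3 in the NNMT group, and K23 and K42 in the KCNIP3 group.

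The first group, of 12 genes, held enzymes of conjugation and oxidation (LOC100511841, CYP2C42, AKR1C4, ALDH1B1, DHRS7, NAT8, AMACR), the secreted peptide LEAP2, the cell cycle inhibitor CDKN1A, PPP1R3B, which directs a phosphatase to glycogen, and the membrane proteins MCOLN2 and TMEM37. K22 was the highest pig in 11 and K3 the lowest in 10 of the 12. On average the genes lay 0.90 above their means in K22 and 0.93 below in K3. The median r was 0.90 in group CON (0.87 without K22) and 0.11 in group PIV. The pair of CDKN1A and PPP1R3B was close in both groups, with r of 0.99 in CON and 0.91 in PIV, as was that of NAT8 and DHRS7 with 0.96 and 0.90.

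The second group joined the lipid genes HMGCS1, ACLY, ACSS2 and FADS1 with CRY1, AVPR1A, SERPINA3-2 and LOC100736607, annotated as an olfactory receptor. Averaged over its genes, K1 and K3 lay 1.07 and 1.17 below the mean and K22 0.95 above. SERPINA3-2 weighs heavily in the averages of K1 and K3, with 4.96 and 4.48 there against its mean of 9.11. HMGCS1 was 9.49 and 9.05 there, against its mean of 10.04. Averages without SERPINA3-2 were not computed. Its median r was 0.87 in group CON (0.88 without K22) and 0.64 in group PIV. The latter was the highest value of the 9 groups in the pigs that had not been used. In PIV pigs HMGCS1 had an r of 0.93 with ACLY and 0.95 with CRY1, and AVPR1A had 0.88 with CRY1. Members that did not keep their place there were SERPINA3-2, with an r of −0.65 with HMGCS1 in PIV and 0.89 in CON, and FADS1, with −0.45 in PIV and 0.89 in CON.

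In the third and the fourth group every gene was highest in K22. ACSL4, LOC100512674 (a zinc finger protein), MCM4, a subunit of the replicative helicase, ALDH18A1, ATAD2, and the mitotic genes CDC20 and KIF20A lay 1.07 above their means in K22, and 6 of the 7 were lowest in K3. ATAD2 (mean 5.06) and LOC100512674 (mean 5.26) lay near the limit of 5. With 5.96 and 6.55 in K22, that pig helped them to reach it. ACSL4, which activates arachidonic acid, was 9.04 in K22 and 6.79 to 7.67 in the other pigs (SD 0.83, 0.42 without K22). The median r of this group was 0.93 in CON, 0.82 in CON without K22 and 0.37 in PIV, where MCM4 and ATAD2 had an r of 0.96. IGF1, PRLR, SLC51B, SMLR1, SCD and PGM2 lay 1.21 above their means in K22, with the other pigs between 0.49 below and 0.03 below. Their median r was 0.93 in CON but 0.57 without K22 and 0.01 in PIV, so that the group rests on that animal.

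A further group was made up of HAMP, CYP4A24, CYP4A21, METTL7B, NREP and AMD1, a decarboxylase of polyamine synthesis. METTL7B, a methyltransferase of the endoplasmic reticulum and of lipid droplets, was 9.81 in K22, 9.80 in K23 and 9.09 in K42, against 8.10 to 8.43 in the other 3 pigs (SD 0.75). The group lay 0.59, 0.80 and 0.16 above its means in K22, K23 and K42 and 0.43 to 0.58 below in K1, K3 and K4. The median r was 0.92 in CON and 0.28 in PIV, where METTL7B and CYP4A24 had 0.83.

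KCNIP3, a calcium-binding protein, MOXD1, a monooxygenase, and ACMSD, which steers tryptophan breakdown away from NAD, were grouped by their r and were highest in K23 and K42. KCNIP3 was 7.16 in K23 and 7.08 in K42, against 4.92 to 5.26 in the others. Its r with ACMSD was 0.92 in CON and 0.66 in PIV, and its r with MOXD1 was 0.83 in CON and −0.16 in PIV. The group of MBL2, GABRQ (a subunit of a GABA receptor), MOB3B, LOC100155404 (a histone H2B) and CENPF ran the other way, 0.72 and 0.83 below the mean in K23 and K42. Its median r was 0.89 in CON and 0.10 in PIV.

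The last groups were small. CRP, NNMT, LOC396684 and PCK1 were all highest in K3, 1.51 above their means, and lowest in K22, 0.98 below (median r 0.94 in CON, 0.82 without K3, −0.22 in PIV). CRP had r of 0.95 with LOC396684 and 0.94 with PCK1 in CON, and −0.65 and 0.67 in PIV. TP53INP1, ZPR1, ERN1, a sensor of unfolded proteins in the endoplasmic reticulum, and LOC106504122 were high in K1 and K3 and low in K23 and K42 (median r 0.91 in CON, 0.37 in PIV), where ZPR1 and ERN1 had 0.88 in PIV.

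**Figure D4:**
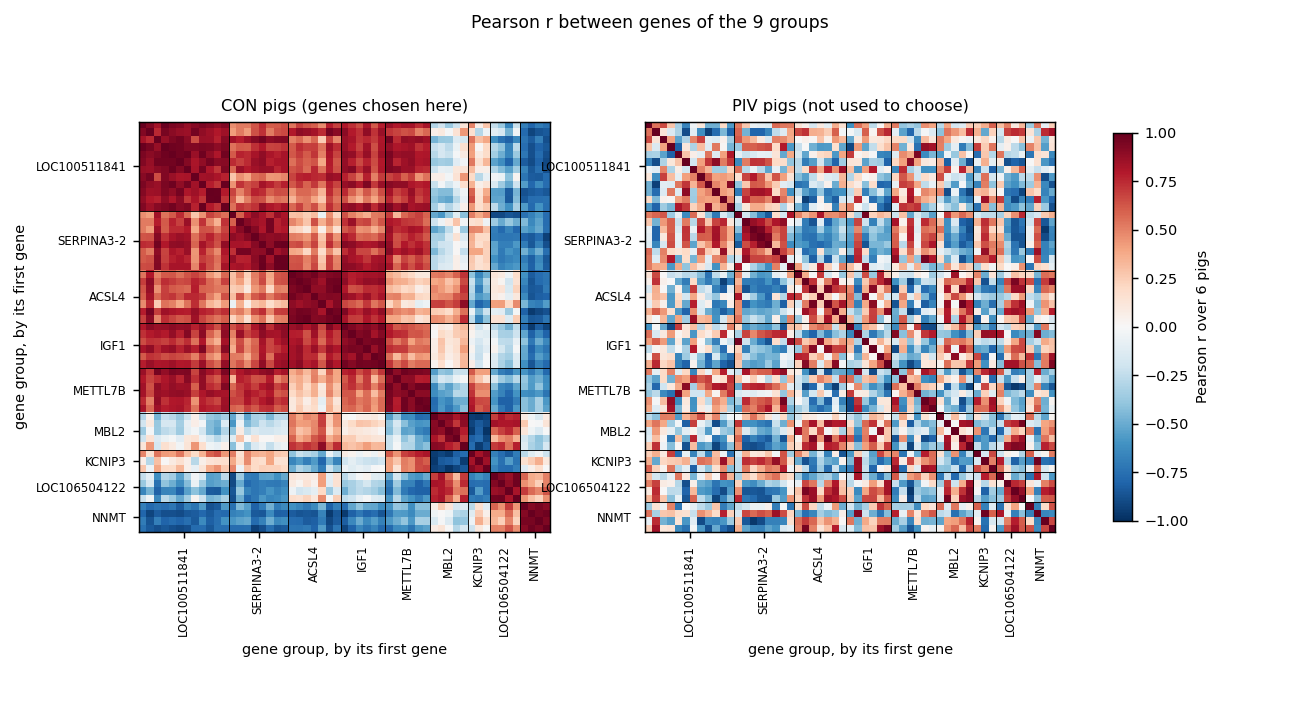
Pearson's r over 6 pigs between genes of the 9 groups, in group CON (left) and in group PIV (right), blue for −1 and red for 1; black lines part the groups. The blocks on the diagonal are red in CON by construction, and in PIV the second group, with a median r of 0.64 over all its genes, keeps a red block of several genes.

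Over the 181 pairs inside the 9 groups the median r was 0.91 in group CON and 0.25 in group PIV, and 60 pairs (33.1%) had an r above 0.5 in PIV. Among all 4950 pairs of the 100 genes 19.0% did, and their median r in PIV was 0.01. Of the 140 pairs with an r of at least 0.9 in CON, 5 reached it in PIV as well. Genes of largest SD that entered no group numbered 43, IGFBP1 among them. Among the 100 genes IGFBP1 was nearest to EFNA1, an ephrin ligand named after its values were seen, with an r of 0.95 in CON and 0.85 in PIV, and most opposed to AMACR (r −0.98 in CON, 0.43 in PIV) and METTL7B (−0.97 and −0.27).

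Pairs of genes known to share a regulator were tested by themselves. Of 27 such pairs 9 had both genes at a mean of 5, and r was tested by an exact permutation test over the 720 pairings of the 6 pigs (two-sided, adjusted over 9 pairs). The test takes the 6 pigs as independent, which shared pens or litters could break. The genes were chosen with earlier results of these data known. HMGCS1 and SQLE, both targets of the sterol sensor SREBP2, had an r of 0.99 (exact permutation p = 0.0028, adjusted p = 0.0250, rho 0.94 with p = 0.0167 and adjusted p = 0.1000), and r was 0.92 without K1 and K3, the pigs farthest from the median. In group PIV r was 0.91 (exact permutation p = 0.0083, adjusted p = 0.0375). HAMP and ID1, targets of BMP signalling, had an r of 0.92 (exact permutation p = 0.0153, adjusted p = 0.0687, rho 0.77 with p = 0.1028 and adjusted p = 0.1850), 0.90 without K22 and K23, and 0.98 in group PIV (exact permutation p = 0.0028, adjusted p = 0.0250). Only the first pair thus passed after adjustment in CON, and both did in PIV.

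The heat shock genes HSPH1 and DNAJB1 had an r of 0.89 (exact permutation p = 0.0292, adjusted p = 0.0844, rho 0.89 with p = 0.0333 and adjusted p = 0.1000), 0.90 without K3 and K22, and 0.30 in group PIV. PCK1 and IGFBP1, both repressed by insulin, had an r of 0.79 (exact permutation p = 0.0375, adjusted p = 0.0844, rho 0.89 with p = 0.0333 and adjusted p = 0.1000), 0.74 without K3 and K22, and 0.78 in group PIV. The T cell genes CD3E and CD2 had an r of 0.73 (exact permutation p = 0.1042, adjusted p = 0.1875, rho 0.83 with p = 0.0583 and adjusted p = 0.1313), but 0.28 without K4 and K22, so the relation rested on those pigs. GLUL and CYP2E1 of pericentral hepatocytes had an r of 0.56 (exact permutation p = 0.2319, adjusted p = 0.3479, rho 0.66 with p = 0.1750 and adjusted p = 0.2625) and 0.68 without K1 and K3.

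For the remaining 3 pairs r was below 0.5 in the control pigs and above 0.8 in the PIV pigs, a difference that was not tested. CISH and SOCS2, targets of STAT5, had an r of 0.46 in CON (exact permutation p = 0.3500, adjusted p = 0.4266, rho 0.43 with p = 0.4194 and adjusted p = 0.4194), 0.34 without K1 and K42, and 0.85 in PIV. CISH and IGF1 had 0.15 in CON (exact permutation p = 0.8236, adjusted p = 0.8236, rho 0.54 with p = 0.2972 and adjusted p = 0.3821), 0.02 without K1 and K42, and 0.89 in PIV. The immediate early genes FOS and EGR1 had 0.45 in CON (exact permutation p = 0.3792, adjusted p = 0.4266, rho 0.49 with p = 0.3556 and adjusted p = 0.4000), 0.21 without K3 and K42, and 0.84 in PIV.

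In the pigs of group PIV, which can also differ in their response to pivalate, the SD of a gene was related to that in group CON (Spearman's rho 0.38 across the 6884 genes, which are not independent replicates). Of the 118 variable genes 46 (39.0%) had an SD of at least 0.5 in PIV too, against 31 of the other 6766 genes (0.458%), and the median SD in PIV was 0.39 for the variable genes and 0.14 for the others. Of the 100 genes of largest SD in CON 41 were also among the 100 of largest SD in PIV, which is 41% of each list. Genes with a large SD in both groups included IGFBP1 (2.02 in CON, 1.57 in PIV), LOC100516628, LOC100524143, MUC13, UQCR10, ASAH2, LOC100156325 (1.04 and 1.02) and CRY1. Genes variable in CON and steady in PIV numbered 22 at an SD under 0.25, among them CXCL10 (0.54 in CON, 0.12 in PIV), ACLY (0.66 and 0.20), FADS1 (0.53 and 0.18) and CDC20 (0.53 and 0.11). Over all genes with a mean of at least 5 in their group, the median SD was 0.14 in PIV and 0.17 in CON. An SD of 0.5 was reached by 78 genes in PIV and by 118 in CON. Without K22 the values of CON were 0.16 and 90 genes. The difference between the groups was not tested.

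**Figure D5:**
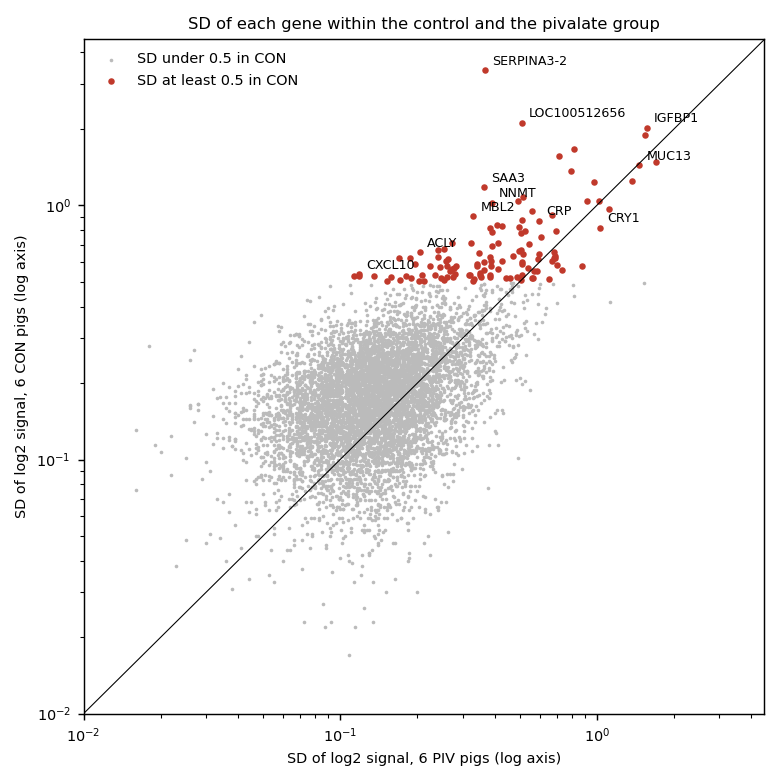
SD of each gene over the 6 PIV pigs (horizontal axis, log scale) and over the 6 CON pigs (vertical axis, log scale); red points are the 118 genes chosen for an SD of at least 0.5 in CON, and the line marks equal SDs. Most red points, chosen on the vertical axis, lie above the line. SERPINA3-2 is farthest from it, at 3.41 in CON and 0.37 in PIV, and IGFBP1 and MUC13 are near it. The median SD over all genes with a mean of at least 5 in the group was 0.17 in CON (0.16 without K22) and 0.14 in PIV.

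A second cluster of the same symbol offered another set of probes for some genes. Among 241 genes with a second cluster of a mean of at least 5, 101 second clusters held the same values within 0.01 and gave no new measurement, FADS1 being one of them. In the other 140 the r over the 6 pigs between both clusters had a median of 0.93 for the 15 genes with an SD of at least 0.3 and of 0.75 for the 125 steadier genes. PCK1, the only variable gene with other probes, had an r of 0.91 between a cluster of 31 probes (SD 0.57) and one of 8 probes (SD 0.54). ABCG5 and ABCG8, which form the sterol exporter of the canalicular membrane, each had an r of 0.96. Of the 15 genes 11 had an r above 0.8. The lowest were ZFP36L2, with SDs of 0.34 and 0.10 and an r of −0.34, FZR1, with SDs of 0.30 and 0.04 and an r of 0.21, and RELT, with an r of 0.42 (ABCG8, ZFP36L2, FZR1 and RELT were named after their values were seen).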

How the data were processed

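The authors normalized the arrays together by RMA (Expression Console 1.4 of Affymetrix, as the submitters' notes on processing name it) and deposited log2 signals per transcript cluster with the manufacturer's annotation. Background correction and scaling thus precede every value here. The sheet also holds the authors' group means, log2 ratio, fold change and p-value, which were not used. Symbols were updated through RefSeq accessions for 1016 clusters, 15 symbols turned into dates by a spreadsheet were restored and 3 were lost. Only within-group SDs and correlations were computed, with no contrast between groups, in Python 3.11.15 with numpy 2.4.6, pandas 2.3.3, scipy 1.17.1 and statsmodels 0.14.6 (lowess fraction 0.3). Precision is limited by 6 arrays.

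The genes and lists were chosen with earlier results of these data known. Named genes were the 30 of largest SD, those of the 9 groups, up to 4 of largest SD per list, the 10 brightest, the 10 steadiest at a signal of 8 or more, the partner pairs and the qPCR references. Any other gene named is said to be. The calculations were tested on simulated data. Alternatives were leaving out pigs, the value table of the series (largest difference 0.0050), equal array medians, quantile normalization, a median absolute deviation, other cluster choices, probe minimum and signal limits, and other linkage. No promoter or protein sequence was used here. Some genes under the naming rule are not reported here and are not drawn by name, while counts and medians over lists and groups include them.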

Additional observations from a re-analysis of the deposited data

Results flagged for a closer look

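In 8 of the named genes, or 4.35% of those tested, a single control pig lay apart from the other 5, that is, its gap to the nearest pig was larger, relative to the range of all 6, than Dixon's critical value. Chance alone gives about 1 in 20 such cases, and 381 of all 6884 genes (5.53%) met the same criterion, so that the count among named genes is not above the background. K22 was the pig that stood apart in LOC100512656 (gap 0.751 of the range, 4.93 in K22), SLC51B (0.735, 7.34 in K22), SMLR1 (0.732, 7.85 in K22), CXCL10 (0.684, 5.29 in K22) and SLC39A4, a zinc importer (0.661, 4.52 in K22). K1 stood apart in SAA3 (0.681, 4.98 in K1), K3 in NNMT (0.738, 8.55 in K3) and K23 in CYP2E1 (0.827, 12.06 in K23). The same held for the mean of the IGF1 group, with K22 apart at a gap of 0.728, and for the mean of the NNMT group, with K3 apart at 0.632. The mean of the acute phase list was 7.45 in K1 and 8.15 to 8.32 in the other pigs (gap 0.801), and this list holds SERPINA3-2 and SAA3, both low in K1.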

How the results depend on the processing

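The count of genes with an SD of at least 0.5 was 90 to 140 when each pig in turn was left out, 75 with a minimum mean of 6 and 214 with none. The number of the 50 most variable genes shared with the reported 50 was 28 with the median absolute deviation, 30 with a minimum mean of 6 and 30 without K22 and K3 together, the last chosen after seeing the data. The 140 pairs at an r of 0.9 became 181 to 300 without 1 pig (300 without K1, 231 without K4, 289 without K23 and 271 without K42) and 340 without K22 and K3. Complete linkage put 37 genes into groups and a limit of r 0.9 put 29, against 57. The r of HMGCS1 and SQLE was 0.977 to 0.994 without 1 pig, where 5 pigs allow no adjusted p below 0.0750. That of CISH and IGF1 was −0.061 to 0.630 (−0.008 without K1, −0.061 without K3), and that of FOS and EGR1 −0.136 to 0.680 (lowest without K42). Without the 2 pigs farthest from the median, r was 0.212 for FOS and EGR1 and 0.276 for CD3E and CD2. The causes were not tested, apart from the smaller number of pigs. SDs of named genes moved by over 1.5 times in 20 without K22, 15 without K3, 47 with the median absolute deviation and 10 with equal array medians. The counts by pig under other scalings, the group r without a pig and the removal of equal second clusters were also chosen after seeing the data. No paired analysis was possible because no contrast between groups was made. The promoter motif search was not run. Signals near 5 have no measured background, and 6 arrays limit every SD and r.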

Other observations

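Genes of protein folding differed between pigs by small steps. Of 18 bright heat shock genes 1 was variable (5.56%, against 1.71% of all genes). This was DNAJB1, a co-chaperone (highest in K23, lowest in K3 at 6.64, SD 0.51). K3 was the lowest pig in 10 of the 18, in 11 with equal array medians and in 8 after quantile normalization. The same counts for all 6884 genes were 1045, 899 and 1145. HSPA8, the constitutive chaperone, was 9.37 in K3 and 10.00 to 10.54 in the other pigs (SD 0.40, 0.22 without K3). None of the 17 genes of the unfolded protein response reached an SD of 0.5, where 1.71% of all genes did. K42 was the lowest pig in 12 of the 17, in 13 with equal array medians and in 7 after quantile normalization. Among all 6884 genes it was the lowest in 2001, 2923 and 1540, in the same order.

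Antiviral genes were lowest in K22 in 8 of 16 interferon-stimulated members (7 with equal array medians, 8 after quantile normalization). This pig was the lowest in 1055 of all 6884 genes (652 and 1340). MX1 was 6.08 in K22 and 6.38 to 7.28 in the other pigs, and MX2 was 5.05 in K22 and 5.62 to 6.08 in the others (SD 0.39, 0.20 without K22). The keratins KRT8 and KRT18 of the bile duct list are also expressed by hepatocytes. They were highest in K22, at 9.07 and 7.90, against 8.17 to 8.64 and 7.13 to 7.60 in the other pigs. K22 was the highest pig in 2203 of all 6884 genes.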
